A study of Mus musculus with 2 samples.

Results

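The clustered replication histone genes supply most of the histone protein that wraps newly copied DNA. They were taken here as the genes whose symbol starts with Hist1h, Hist2h, Hist3h or Hist4h and that had at least 20 UMIs (unique molecular identifiers, each standing for 1 captured transcript) over both libraries of the series. This left 62 of 67 such symbols, out of 32285 genes counted. They comprise 5 genes of the linker histone H1, 16 of H2A, 16 of H2B, 12 of H3 and 13 of H4. The Hist1 cluster on chromosome 13 holds 50 of them, the Hist2 cluster on chromosome 3 holds 9, the Hist3 cluster on chromosome 11 holds 2, and Hist4h4 on chromosome 6 stands alone. Just inside the minimum lay Hist1h2ah with 29 UMIs, and just outside it Hist2h2aa2 with 1 UMI. Hist1h2bq, Hist1h1t, Hist1h2ba and Hist1h2aa had 0 UMIs in each library.

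Droplet single-cell RNA sequencing was run on regulatory T cells (Tregs) taken from tumours. These cells depend on the transcription factor Foxp3 and hold back immune responses. The cKO library came from C57BL/6 mice aged 8 to 12 weeks with a Treg conditional knockout of Jmjd1c, a gene for a JmjC-domain protein related to histone demethylases, and the WT library from C57BL/6 mice of the same age range with wild-type Jmjd1c. Cells of both groups were enriched with magnetic beads and sorted by fluorescence, and each group has 1 library. Neither the Cre driver, the removed exons and the tumour type nor how many animals went into a library is stated in the labels.

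A dividing cell makes these mRNAs in large amounts during S phase and destroys them when DNA copying stops. Most of them carry no poly(A) tail. Their ends are instead cut just after a short hairpin, the stem-loop, which is bound by the protein encoded by Slbp, and the cofactor encoded by Npat drives their transcription. Some cluster genes also give polyadenylated mRNAs that persist outside S phase, a property known for the human counterparts of Hist1h1c and Hist1h2bc. The library protocol primed on poly(A) RNA, so a level given here counts captured transcripts of a gene, and how much of each gene's RNA escaped capture was not tested.

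The stem-loop itself was read from the longest protein-coding transcript of each gene (GENCODE M21, GRCm38). The pattern searched, on the transcript strand, was GGNNNT, then TTTN as the loop, then ANNNCC, with the 6 bases on either side of the loop required to pair. It was found in 41 of 62 members and in 0.112% of 58795 protein-coding transcripts of the annotation. The 41 members held 6 variants of it. The following 6 are shown because the results below sort members by how their transcripts end, and some of the lower members share a variant. Each is 1 member of its variant, 5′ to 3′ with the stem-loop in capitals and up to 5 flanking bases on each side.
Hist1h2ap: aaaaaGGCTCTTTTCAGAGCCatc
Hist1h4d: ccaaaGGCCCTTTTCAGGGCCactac
Hist1h3c: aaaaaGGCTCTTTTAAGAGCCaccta
Hist1h4i: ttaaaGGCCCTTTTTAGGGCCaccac
Hist1h4b: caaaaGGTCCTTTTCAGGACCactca
Hist2h2ac: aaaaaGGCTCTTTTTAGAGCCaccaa
The variant of Hist1h2ap was shared by 24 members of H1, H2A, H2B and H3. That of Hist1h4d was found in 7 members, each of them an H4 gene. The variant of Hist1h3c was found in Hist1h2bb, Hist1h2bk, Hist1h3c, Hist1h3e and Hist1h3f, that of Hist1h4i also in Hist2h4, and that of Hist1h4b also in Hist1h4j. In 20 members the annotated transcript stopped within 100 bases after the stem-loop, and in none of these 20 did an AATAAA follow it. In 21 members the transcript ran on for over 100 bases, and 12 of these 21 held an AATAAA after the stem-loop. For the other 21 members no match says only that these letters were not in the annotated transcript.

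The cKO library held 4105 barcodes and 37666195 UMIs, and the WT library 3905 barcodes and 49063944 UMIs. Barcodes with at least 500 genes and under 10% mitochondrial UMIs were kept, 4026 in cKO and 3842 in WT, and 2 barcodes occurred in both libraries. Tregs were cells with at least 6 UMIs of Foxp3, Il2ra, Ikzf2 and Ctla4 and at most 2 of Lyz2 and C1qa, which gave 3120 cKO and 3525 WT cells. Cd4, a marker that the rule did not use, stood at 151 CPM in cKO and 162 CPM in WT Tregs, beside 30.0 and 54.7 CPM in myeloid cells. CD8 T cells had at least 3 UMIs of Cd8a and Cd8b1 (407 in cKO and 213 in WT), and 47.4% of the cKO and 84.0% of the WT cells so chosen also met the Treg rule, which goes against reading them as a separate cell type. Myeloid cells had at least 10 UMIs of Lyz2 and C1qa (321 in cKO and 103 in WT). Jmjd1c stood at 72.3 CPM (UMIs of a gene per 1000000 UMIs of the same cells) in cKO Tregs and at 85.1 CPM in WT Tregs, and since 3′ tags can lie outside a deleted part, this checks neither the deletion nor the labels. Xist, the RNA of the inactive X chromosome of female cells, was detected in 0.273% of kept cKO and 97.1% of kept WT cells, so sex and genotype cannot be told apart in any comparison between the libraries.

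With 1 library per group there is no test between animals. Intervals are exact 95% intervals, Poisson for levels and binomial for ratios and shares, and cover counting error only. CPM values are not divided by gene length, since a transcript is tagged once, near its 3′ end. Fewer transcripts per cell and a smaller share of a cell's RNA cannot be told apart in CPM.

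Histone transcripts were higher in cells with S phase transcripts in both libraries. Cells with at least 4 UMIs of Pclaf, Rrm2 and Tyms, genes of DNA clamp binding and nucleotide supply, are called S-high, and cells with 0 are called S-zero. The 248 S-high cKO Tregs held 2345 CPM of the 62 members (2304 to 2386), against 284 CPM (276 to 292) in 2397 S-zero cKO Tregs. The 468 S-high WT Tregs held 3773 CPM (3741 to 3806), against 486 CPM (477 to 495) in 2419 S-zero WT Tregs. The summed level was thus 8.26-fold higher in S-high than in S-zero cells in cKO (7.99 to 8.54) and 7.76-fold in WT (7.60 to 7.93). Of the members with at least 20 UMIs in the 2 groups of Tregs together, 47 of 54 in cKO and 51 of 58 in WT were at least 2-fold higher in S-high cells, where 9.08% of all genes tested in cKO and 8.00% in WT were. At least 2-fold lower in S-high cells was 1 of 54 in cKO, Hist3h2a, where 9.73% of all genes tested were, and 0 of 58 in WT, where 10.7% were. In cKO 21 and in WT 18 of these members reached 20 UMIs only through the S-high cells, so this count describes them and supports nothing further. The median log2 ratio of the members was 3.56 in cKO and 3.36 in WT, beside -0.14 and -0.18 over all genes tested.

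The difference was graded. In cKO Tregs the summed level was 284 CPM at 0 UMIs of the S phase genes, 484 at 3, 724 at 4, 1595 at 5 to 9, 1949.5 at 10 to 19 and 2803 at 20 or more. In WT Tregs it was 486 CPM at 0, 831 at 3, 1025 at 4, 1448 at 5 to 9, 3095 at 10 to 19 and 5018 at 20 or more. The cKO level lay below the WT level in every band except that of 5 to 9 UMIs, where it was higher (1512 to 1681 CPM in cKO, 1399 to 1498 CPM in WT). At the same number of S phase UMIs the cKO cells were shallower, with a median of 22839.5 UMIs in cKO and 30768 UMIs in WT in the highest band.

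**Figure D1:**
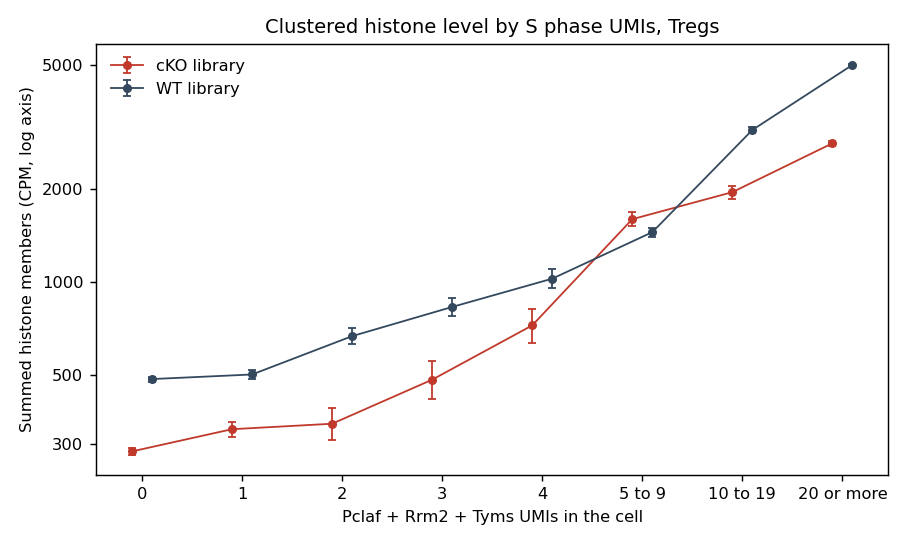
Summed level of the 62 members in Tregs (CPM, log axis) against the number of Pclaf, Rrm2 and Tyms UMIs in the cell, for the cKO and the WT library, with bars for 95% counting intervals. The level climbs to 2803 CPM in cKO and 5018 CPM in WT, and the libraries cross only at 5 to 9 UMIs.

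Summed by class, histone transcripts differed in their fold of S-high over S-zero cells. H2A transcripts stood at 889.6 CPM in S-high and 45.7 CPM in S-zero cKO Tregs (19.4-fold, 18.0 to 20.99), and at 1130.4 and 55.6 CPM in WT (20.3-fold, 19.2 to 21.6). For H3 the fold was 12.5 in cKO (11.0 to 14.3) and 15.8 in WT (14.4 to 17.3). H1 had folds of 5.89 in cKO and 5.71 in WT, H2B of 5.96 and 4.87, and H4 of 4.79 and 5.80. The make-up of the histone UMIs also differed between the S groups. In cKO, H2A supplied 37.9% of member UMIs in S-high and 16.1% in S-zero cells, and H1 supplied 29.1% and 40.8%. In WT, H2A supplied 29.96% and 11.4%, and H1 supplied 35.8% and 48.6%. These sums depend on single members. Hist1h1c alone supplied 1051 of 1994 H1 UMIs in S-zero cKO and 2716 of 5141 in S-zero WT Tregs. Folds of single members in WT ran from 1.33 (Hist1h1c) to 84.4 (Hist1h1b) in H1. In H2A they ran from 0.607 (Hist3h2a) to 168 (Hist1h2af).

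Hist1h1b, an H1 gene that RefSeq names H1f5 (chromosome 13, 21779883 to 21780625, minus strand), was among the members most tied to S phase. It stood at 273 CPM in S-high and 3.20 CPM in S-zero cKO Tregs, and at 629 and 7.45 CPM in WT, which gave folds of 85.3 (65.2 to 114) in cKO and 84.4 (72.3 to 99.2) in WT. Its intervals in the 2 libraries overlap. Hist1h3b had 127 UMIs in S-high and 0 in S-zero cKO cells. Its fold in cKO was 134 with the 0 set to a floor of 3 counts, and the lower limit of its interval was 107. In WT it was 197-fold higher (67.0 to 960) on 3 UMIs in S-zero cells. For Hist1h2af, an H2A gene, the folds were 92.1 in cKO and 168 in WT, on 5 and 6 UMIs in S-zero cells.

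At the other end lay members whose level did not go with the S phase genes. Hist3h2a, an H2A gene (chromosome 11, 58954685 to 58956830), stood at 8.25 CPM in S-high and 19.3 CPM in S-zero cKO Tregs, and at 12.0 and 19.8 CPM in WT. It was thus lower in S-high cells in both libraries, at 0.428 times the S-zero level in cKO (0.306 to 0.585) and 0.607 times in WT (0.504 to 0.728). Reads of Hist3h2a are shared in part with Trim17, whose annotated span on the same strand contains it, so its counts are uncertain. Hist1h2bc had folds of 0.987 in cKO and 1.16 in WT, and Hist4h4 of 1.02 and 0.863. Hist1h1c, the H1 gene with the highest level in S-zero cells, had folds of 1.69 in cKO (1.52 to 1.87) and 1.33 in WT (1.26 to 1.41). Hist2h2be, with 3 and 6 UMIs in S-high cells of cKO and WT, was too low to read.

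Sorted by the annotated end, the 20 members whose transcript stops within 100 bases after the stem-loop were together 23.9-fold higher in S-high than in S-zero cells in cKO and 25.4-fold in WT. The 21 members whose transcript runs on had summed folds of 4.45 in cKO and 4.57 in WT, and the 21 without the pattern had 14.3 and 14.4. Single members overlapped widely. Folds in cKO ran from 2.01 to 134, the latter against the floor, for those that stop soon after the stem-loop. For those that run on they ran from 0.428 to 31.8. Hist3h2a, Hist4h4 and Hist1h1c are of the second kind, with 1643, 2445 and 840 bases after the stem-loop, while Hist1h2ap ends 3 bases after it.

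**Figure D2:**
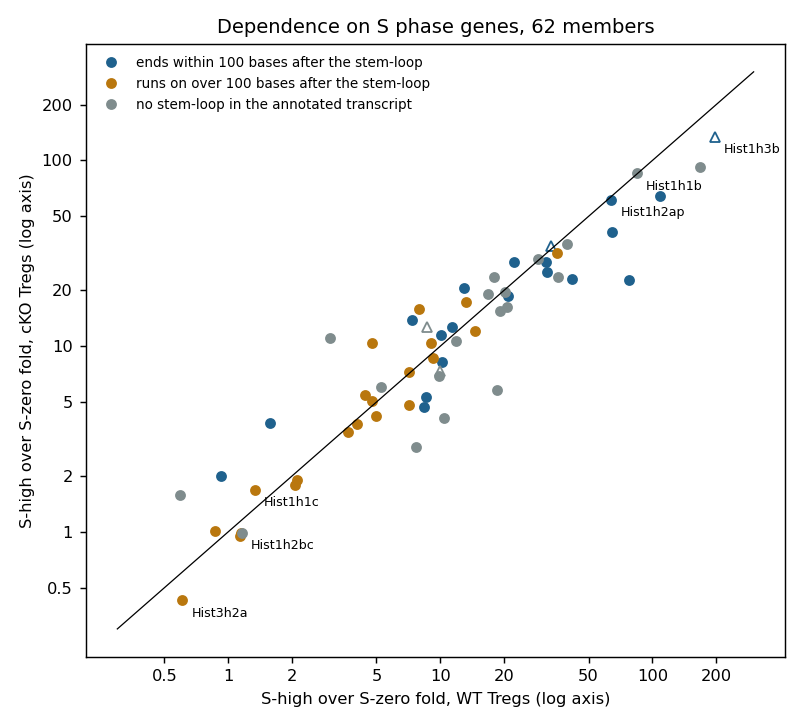
Fold of S-high over S-zero Tregs for each of the 62 members, with cKO on the vertical and WT on the horizontal log axis, coloured by how the annotated transcript ends. Open triangles are members with 0 UMIs in S-zero cells of a library, set there to a floor of 3 counts, and the line marks equal folds. All 3 kinds of end occur at low folds. Hist3h2a is lowest in cKO, and Hist1h3b stands highest in both libraries.

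In both the S-high and the S-zero group of Tregs, the summed histone level was lower in the cKO library. In S-high Tregs the 62 members summed to 2345 CPM in cKO and 3773 CPM in WT, which is 62.1% of WT and a log2 ratio of -0.69 (-0.71 to -0.66). In S-zero Tregs they summed to 284 CPM in cKO and 486 CPM in WT, a log2 ratio of -0.78 (-0.82 to -0.73). Over all Tregs the values were 703 CPM in cKO and 1530.0 CPM in WT, and the log2 ratio was -1.12, with S-high cells making up 7.95% of cKO Tregs (7.02 to 8.95) and 13.3% of WT Tregs (12.2 to 14.4). Counted over all Tregs, 25 of 62 members were at least 2-fold lower in cKO (6.83% of all genes tested) and 0 were 2-fold higher (3.33%). With the S groups given equal weight, the log2 ratio over all Tregs was -0.70.

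Of 58 members with at least 20 UMIs in S-high Tregs of both libraries together, 13 were at least 2-fold lower in cKO, where 5.07% of all 10952 genes tested were, and 0 were 2-fold higher, where 2.82% were. The log2 ratio was below 0 in 46 members, where it was in 52.6% of all genes tested, and above 0 in 12. The median of the members was -0.53, against -0.02 over all genes. In S-zero Tregs 46 members could be compared, of which 15 were at least 2-fold lower (6.82% of all genes tested) and 2 at least 2-fold higher, Hist1h2bm and Hist1h3a (2.99% of all genes). Their median was -0.41, and that of all genes -0.06. Hist1h4m, Hist2h2be, Hist2h3c1 and Hist2h3c2 had too few UMIs in S-high Tregs. Some members called lower reached 20 UMIs only through the WT library, where they were higher. Hist1h3d had 7 UMIs in S-zero cKO and 21 in S-zero WT Tregs, and Hist1h2br 10 and 63 in S-high Tregs. The counts of lower members thus describe them and support nothing further. Both comparisons draw on the same pair of libraries and are not independent.

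The S-high cells of the libraries were not alike in other ways. Their median depth was 20754.5 UMIs in cKO and 26408 in WT, and Pclaf, Rrm2 and Tyms together stood at 1195 CPM in cKO and 868 CPM in WT. With each cell thinned to 4100 UMIs and S-high redefined as at least 2 UMIs after thinning, the summed log2 ratio was -0.96 (224 cKO and 351 WT cells) and 21 of 38 members with at least 20 UMIs were at least 2-fold lower, where 4.56% of 7514 genes were. The myeloid marker list stood at 142 CPM in S-high cKO Tregs and 42.8 CPM in S-high WT Tregs (10 of 10 markers detected in each), and the CD8 T list at 1359.7 and 766 CPM (6 of 6 in each). With a stricter rule, at least 10 UMIs of the Treg genes and no Lyz2 or C1qa UMI, the summed ratio was -0.70. Most S-high Tregs also held at least 4 UMIs of Cdc20, Ccnb2 and Cenpa together. In these the members summed to 2547 CPM in 188 cKO cells and 4087 CPM in 391 WT cells. Cenpa also stood at 210 CPM in cKO and 259 CPM in WT S-zero Tregs, where 303 cKO and 580 WT cells reached the same minimum. The minimum thus does not mark G2 and M phase cells alone. The few S-high Tregs with 0 UMIs of these genes held far less, 428 CPM in 20 cKO cells (353 to 513) and 971 CPM in 16 WT cells (862 to 1089). They were also shallower, with a median of 12135 against 21983 UMIs in cKO and 17911.5 against 28245 in WT. Their H2A level was 52.0 CPM in cKO (28.5 to 87.3), with an interval that holds the 45.7 CPM of S-zero cKO Tregs, and 248 CPM in WT (194.5 to 311).

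**Figure D3:**
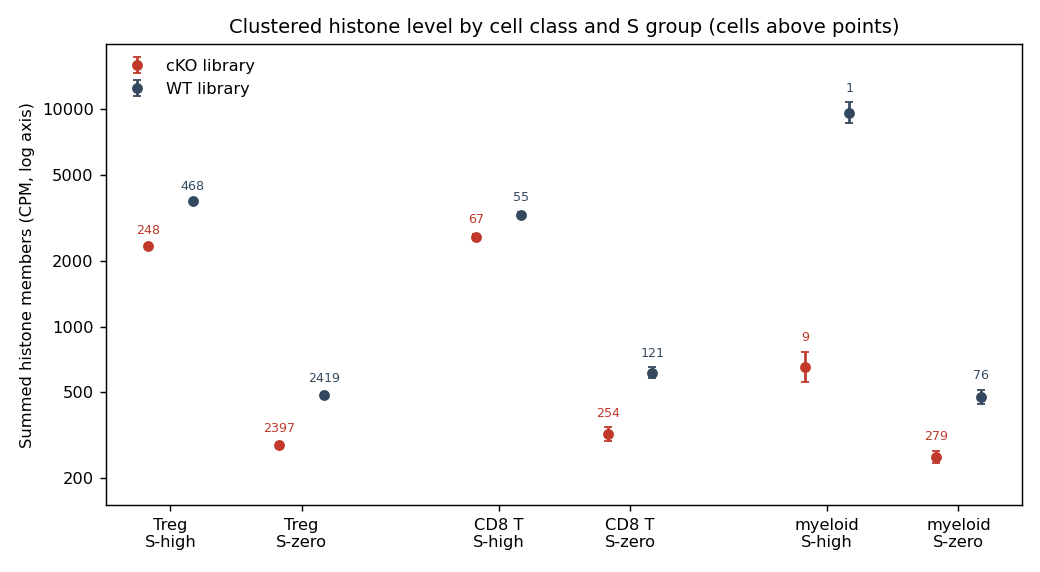
Summed level of the 62 members (CPM, log axis) in S-high and S-zero cells of the 3 cell classes, cKO beside WT, with 95% counting intervals and the number of cells above each point. The cKO point lies below the WT point in every pair, and the S-high myeloid pair rests on 9 cKO cells and 1 WT cell. Of the CD8 T cells, 47.4% in cKO and 84.0% in WT are also counted as Tregs, so these pairs are not separate. Without cells of 2 classes the S-high CD8 T pair turned, on 2 WT cells.

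Each of the 5 classes lay lower in cKO than in WT, and whether the classes differ in this was not tested. H1 transcripts stood at 682 CPM in S-high cKO Tregs (661 to 705) and 1349.8 CPM in S-high WT Tregs (1330.5 to 1369), a log2 ratio of -0.98. H2A stood at 889.6 CPM in cKO (865 to 915) and 1130.4 CPM in WT (1113 to 1148), a ratio of -0.35. The intervals of the libraries do not overlap in either class. The H2A value rests on Hist1h2ap, which stood higher in cKO, and without it H2A stood at 450.1 CPM in cKO and 789 CPM in WT (-0.81, -0.87 to -0.75), a sum chosen after seeing the data. H2B stood at 279 and 402 CPM (-0.52), H3 at 214 and 386 CPM (-0.85), and H4 at 279 and 505 CPM (-0.86), cKO first in each pair. Within each class the members spread more widely than the classes did.

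**Figure D4:**
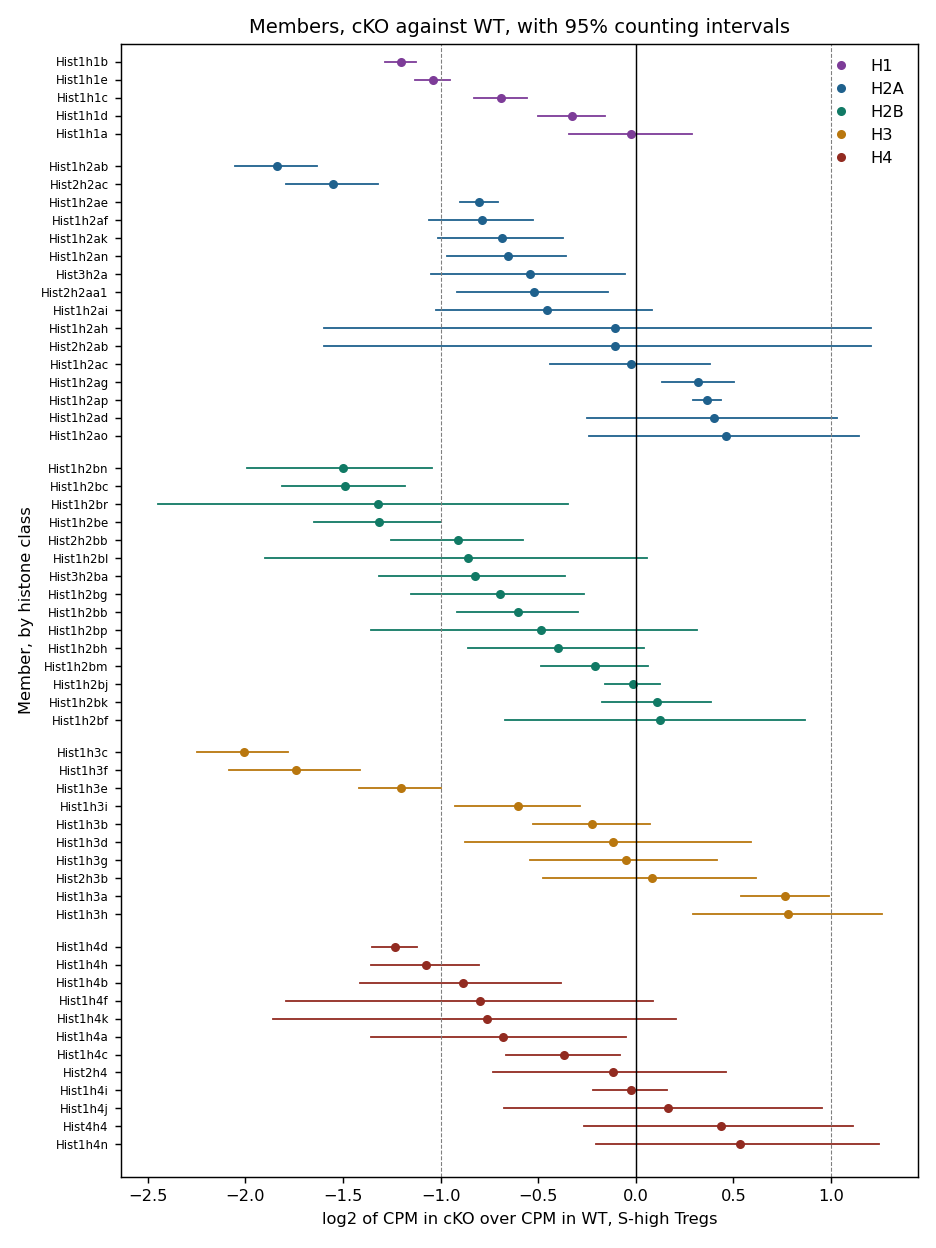
Log2 ratio of CPM in cKO over CPM in WT, S-high Tregs, for the 58 members with enough UMIs, sorted within each histone class. Lines are 95% counting intervals and dashed lines mark 2-fold. Hist1h3c lies lowest at -2.01 and Hist1h3h highest at 0.78.

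Linker histone H1 binds the DNA between nucleosomes, and 2 of its 5 members were at least 2-fold lower in cKO S-high Tregs (5.07% of all genes tested) and 0 higher (2.82%). Hist1h1b stood at 273 CPM in cKO and 629 CPM in WT (-1.21, -1.29 to -1.13), and Hist1h1e (H1f4 in RefSeq) at 218 CPM in cKO and 449 CPM in WT (-1.04, -1.13 to -0.95). Hist1h1e shares 496 bases of its span with Hist1h2be on the same strand, so reads there cannot be given to either with certainty. Hist1h1c stood at 103 CPM in cKO and 166 CPM in WT (-0.69, -0.83 to -0.56), and in S-zero Tregs, where it supplied 21.5% of cKO and 25.7% of WT member UMIs, at 61.1 and 125 CPM (-1.03, -1.14 to -0.93). Hist1h1a, the lowest of the class, stood at 21.8 CPM in cKO and 22.2 CPM in WT, with overlapping intervals.

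H2A and H2B form the dimers at the edge of the nucleosome. Hist1h2ap (chromosome 13, 21833026 to 21833507, minus strand) was the leading member of S-high cKO Tregs, with 18.7% of their member UMIs, and the third of S-high WT Tregs with 9.04%. It stood at 439 CPM in cKO and 341 CPM in WT (0.37, 0.29 to 0.44), the other way from the class. Hist1h2ae stood at 193 CPM in cKO and 336 CPM in WT (-0.80), and Hist1h2ab (chromosome 13, 23751126 to 23751598, plus strand) at 37.6 CPM in cKO and 135 CPM in WT (-1.84, -2.06 to -1.63). Near-identical copies limit these values. Of all stretches of 90 bases in the transcript of Hist1h2ap, 92.4% also occur in another gene, mainly Hist1h2ao and Hist1h2ag, and 53.6% of those of Hist1h2ab do. Such sharing touched 58 of 62 members, and for 25 of them over 50% of the stretches were shared, so a gain of 1 copy and a loss of its twin cannot always be told apart in these counts.

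Hist1h2bj, the leading H2B member of S-high Tregs over both libraries, stood at 104 CPM in cKO and 105 CPM in WT, a log2 ratio of -0.02 (-0.16 to 0.12). Hist1h2bc stood at 17.8 CPM in cKO and 49.95 CPM in WT (-1.49, -1.81 to -1.18), and in S-zero cells, at 18.0 CPM in cKO and 43.2 CPM in WT (-1.26). Hist1h2bm stood at 27.7 CPM in cKO and 32.0 CPM in WT (-0.21, -0.49 to 0.06) in S-high Tregs, but at 1.22 and 0.414 CPM in S-zero Tregs, on 21 and 9 UMIs.

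H3 and H4 form the core of the nucleosome, and H3 held both the lowest and the highest member. Hist1h3c (chromosome 13, 23744973 to 23745602, minus strand) stood at 31.0 CPM in cKO (169 UMIs) and 125 CPM in WT (1716 UMIs), a log2 ratio of -2.01 (-2.25 to -1.78). Hist1h3f stood at 15.4 CPM in cKO and 51.5 CPM in WT (-1.74), and Hist1h3e at 41.3 CPM in cKO and 95.1 CPM in WT (-1.21). In the opposite direction, Hist1h3a stood at 50.2 CPM in cKO and 29.6 CPM in WT (0.76, 0.54 to 0.99), and Hist1h3h at 11.4 CPM in cKO and 6.62 CPM in WT (0.78, 0.29 to 1.26). The 3 lower H3 members are the 3 that carry the variant stem-loop shown for Hist1h3c. The 2 H2B members with that variant differed, Hist1h2bb at 20.4 CPM in cKO and 30.9 CPM in WT (-0.60) and Hist1h2bk at 28.1 CPM in cKO and 26.0 CPM in WT (0.11).

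Hist1h4d (chromosome 13, 23581598 to 23582735, plus strand) led the H4 class with 135 CPM in S-high cKO Tregs and 318 CPM in S-high WT Tregs (-1.24, -1.35 to -1.12). Only 0.858% of its 90-base stretches occur elsewhere. Hist1h4h stood at 23.8 CPM in cKO and 50.2 CPM in WT (-1.08), while Hist1h4i stood at 58.3 CPM in cKO and 59.4 CPM in WT (-0.03, -0.22 to 0.16). Hist1h4n, the highest of the class at 0.53, had 27 UMIs in cKO and 47 in WT and an interval spanning 0 (-0.20 to 1.25).

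Detection in single cells followed the levels. After thinning to 4100 UMIs, which left out 1 cell of each library, Hist1h3c was detected in 10.9% of 247 S-high cKO Tregs (7.33 to 15.5) and in 32.8% of 467 S-high WT Tregs (28.5 to 37.2). Unthinned, the shares were 38.7% in cKO and 74.6% in WT, and in S-zero Tregs, thinned, 0.440% and 0.651%. For Hist1h2ap the thinned shares were 61.9% in cKO and 54.6% in WT (unthinned 78.2% and 70.3%), against 2.79% and 2.04% in S-zero Tregs. Hist1h1c was detected in 15.5% of S-zero cKO and 29.0% of S-zero WT Tregs (unthinned 23.1% and 43.3%), and in 18.7% of S-zero cKO and 30.3% of S-zero WT myeloid cells. The myeloid shares rest on 262 cKO and 76 WT cells, so the Hist1h1c shares of S-zero Tregs and myeloid cells are not put in order here. The part of free RNA in either was not tested. Thinning left out 352 S-zero cKO and 114 S-zero WT Tregs.

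Myeloid cells without S phase UMIs held levels close to those of S-zero Tregs, and differed between the libraries too. Their members summed to 252 CPM in cKO (236 to 268) and 475 CPM in WT (440.1 to 511), a log2 ratio of -0.91. H1 stood at 110.1 CPM in cKO and 236 CPM in WT myeloid cells, beside 116 CPM in cKO and 236 CPM in WT S-zero Tregs. Of 15 members with enough UMIs, 7 were at least 2-fold lower in cKO (3.89% of all genes tested) and 1 at least 2-fold higher (3.69%), Hist1h2ap on 17 UMIs in cKO and 3 in WT (1.11, -0.68 to 3.52). Hist1h2bc stood at 22.95 CPM in cKO and 93.0 CPM in WT myeloid cells (-2.02) and Hist1h1c at 71.4 and 192 CPM (-1.43), whereas Hist1h1e stood at 29.7 and 25.8 CPM (0.20, -0.34 to 0.77), apart from its ratio in Tregs. The deletion was directed at Tregs. Over myeloid cells of all S groups, the T cell gene Cd3e was detected in 27.1% of cKO and 53.4% of WT cells. Foxp3 was detected in 7.48% and 16.5% of them. Myeloid droplets thus also held T cell transcripts. Free RNA from Tregs in myeloid droplets was not tested as a source of these counts. The 9 S-high cKO myeloid cells summed to 652 CPM, and the single S-high WT cell to 9652 CPM. Ratios of S-high myeloid cells given under other settings below rest on that 1 WT cell, so nothing is read from them.

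In CD8 T cells the 67 S-high cKO cells summed to 2583 CPM and the 55 S-high WT cells to 3279 CPM, a log2 ratio of -0.34 (-0.40 to -0.29). In S-zero CD8 T cells the members summed to 320 CPM in cKO (298 to 343) and 611 CPM in WT (576 to 648), a ratio of -0.93. In S-high CD8 T cells 8 of 44 members were at least 2-fold lower in cKO (5.97% of all genes tested), among them Hist1h3c (29.2 CPM in cKO and 104 CPM in WT, -1.83) and Hist1h2ab (35.6 and 119 CPM, -1.74), and 1 was at least 2-fold higher (3.05%), Hist2h3b, on 15 UMIs in cKO and 8 in WT. Hist1h2ap stood at 509 CPM in cKO and 285 CPM in WT (0.84). Between S groups of CD8 T cells, 33 of 37 members in cKO (8.00% of all genes tested) and 34 of 39 in WT (7.21%) were at least 2-fold higher in S-high cells, and 1 in cKO (8.98%) and 1 in WT (10.1%) at least 2-fold lower, with the same limit of members that reached 20 UMIs through S-high cells. In S-zero CD8 T cells 7 of 18 were lower (8.16%) and 1 was higher (2.87%), Hist1h3a. Many of these cells also met the Treg rule, and more so in WT. Outside the other classes lay 26 of 67 S-high and 144 of 254 S-zero cells in cKO. In WT 2 of 55 S-high and 29 of 121 S-zero cells did. Without cells of 2 classes, 26 S-high cKO cells stood at 2914 CPM and 2 S-high WT cells at 877 CPM on 18 UMIs, which turns the direction (1.73), and in S-zero cells the ratio was -0.34. The S-zero cells left were unlike each other, with the CD8 T list at 13295 CPM in cKO and 3382 CPM in WT, the T cell list at 5985 and 1783 CPM, and the myeloid list at 415 and 3109 CPM.

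Position within the clusters gave a further split. The widest gap between neighbouring Hist1 members, 1487373 bases between Hist1h2bj and Hist1h4h, parts the cluster into a stretch of 22 members (chr13:21715763-22043676, GRCm38) and one of 28 members (chr13:23531050-23764406). In S-high Tregs the members of the first stretch summed to 1108 CPM in cKO and 1405 CPM in WT (-0.34, -0.39 to -0.30). Those of the last stretch summed to 1137 CPM in cKO and 2179 CPM in WT (-0.94, -0.98 to -0.90). Of 21 members compared in the first stretch 3 were at least 2-fold lower in cKO and 14 lay below 0, and of 28 in the last stretch 9 and 25 did. Over all genes tested 5.07% were at least 2-fold lower and 52.6% lay below 0. The difference between the stretches was not tested. Without Hist1h2ap the first stretch summed to 668 CPM in cKO and 1064 CPM in WT (-0.67, -0.72 to -0.62). That sum is led by Hist1h1b, with 1487 of 3644 UMIs in cKO and 8645 of 14634 in WT, so it does not describe the stretch at large. The median log2 ratio of single members was -0.21 in the first stretch and -0.69 in the last. In S-zero Tregs the first stretch stood at 43.2 CPM in cKO and 46.6 CPM in WT (-0.11, -0.25 to 0.03) and the last at 193 CPM in cKO and 381 CPM in WT (-0.98, -1.04 to -0.92). The split mixes classes and single members unevenly, since Hist1h1b, Hist1h2bn and Hist1h2br lie in the first stretch and Hist1h3a in the last. Hist2 members summed to 77.9 CPM in S-high cKO Tregs and 157 CPM in S-high WT Tregs (-1.02), and Hist2h2ac supplied 39.5% of their 425 UMIs in cKO and 57.3% of 2166 in WT (-1.55).

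**Figure D5:**
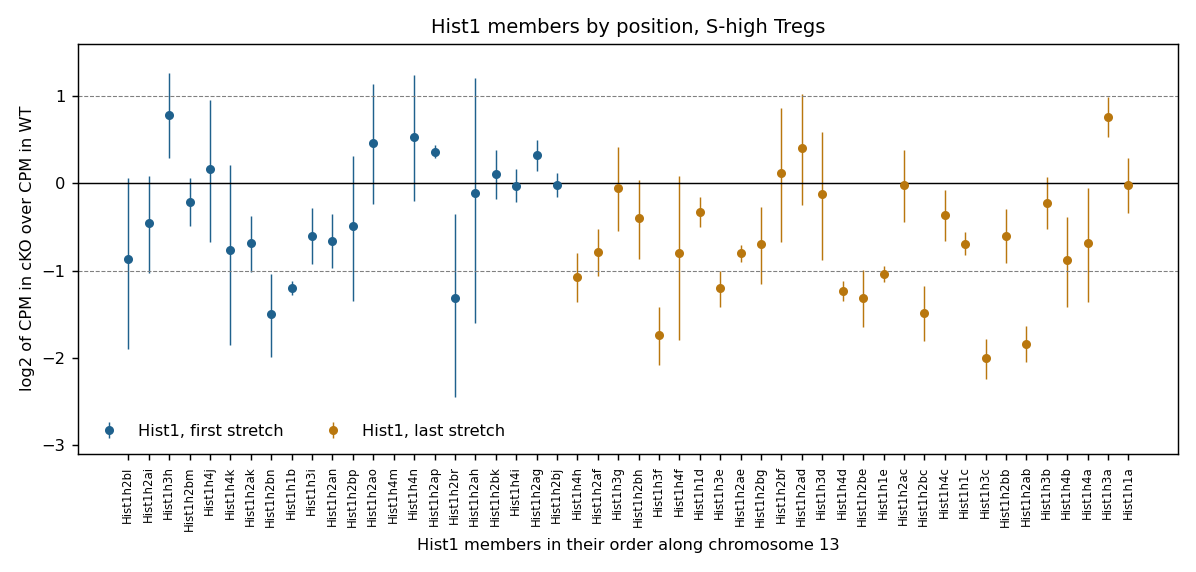
Log2 ratio of CPM in cKO over CPM in WT, S-high Tregs, for the Hist1 members in their order along chromosome 13, coloured by stretch. Bars are 95% counting intervals and dashed lines mark 2-fold. Most members of the last stretch lie below 0, Hist1h3c lowest, and Hist1h3a stands above it.

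By annotated end, the members that stop within 100 bases after the stem-loop stood at 928 CPM in S-high cKO Tregs and 1098.5 CPM in S-high WT Tregs, 84.5% of WT (81.8 to 87.2). Those that run on stood at 942 CPM in cKO and 1722 CPM in WT, 54.7% of WT (53.1 to 56.4), and those without the pattern at 475 CPM in cKO and 953 CPM in WT, 49.8% of WT. The first kind still held the 2 lowest members, Hist1h3c and Hist1h2ab, and its sum is led by Hist1h2ap, with 2397 of 5062 UMIs in cKO and 4692 of 15108 in WT. Without Hist1h2ap the first kind stood at 64.5% of WT (61.8 to 67.3). Hist1h1b supplied 1487 of 2588 UMIs of the last kind in cKO and 8645 of 13103 in WT.

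Upstream sequence was available for 56 members (RefSeq, GRCm38.p6, 250 bases before the start). TATAAA, on either strand, was in 27 of these 56 (48.2%) and in 12.4% of 32851 promoters, and CCAAT, on either strand, in 45 of 56 (80.4%) and in 33.8%. Windows of neighbouring members on opposite strands can cover the same bases, as those of Hist1h2ag and Hist1h2bj do. One match can then count for both genes, so the 56 windows are not all separate. The windows of Hist1h1b (chr13:21780626-21780875, minus strand), Hist1h3c (chr13:23745522-23745771, minus strand) and Hist1h4d (chr13:23581318-23581567, plus strand) are shown since these were, or were among, the leading lower members of their classes. The window of Hist1h3c overlaps the GENCODE span of the gene given above. Capitals mark TATAAA and CCAAT in either orientation.
Hist1h1b: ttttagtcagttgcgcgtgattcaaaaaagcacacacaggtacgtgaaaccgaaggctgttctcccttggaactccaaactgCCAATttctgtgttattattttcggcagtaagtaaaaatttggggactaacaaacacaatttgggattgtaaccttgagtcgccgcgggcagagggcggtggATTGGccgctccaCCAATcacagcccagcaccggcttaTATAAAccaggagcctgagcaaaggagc
Hist1h3c: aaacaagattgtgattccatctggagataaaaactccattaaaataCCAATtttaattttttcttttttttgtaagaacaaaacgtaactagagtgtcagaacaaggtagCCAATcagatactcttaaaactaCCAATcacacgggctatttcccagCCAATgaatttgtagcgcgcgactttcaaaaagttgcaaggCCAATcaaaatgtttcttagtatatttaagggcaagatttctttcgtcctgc
Hist1h4d: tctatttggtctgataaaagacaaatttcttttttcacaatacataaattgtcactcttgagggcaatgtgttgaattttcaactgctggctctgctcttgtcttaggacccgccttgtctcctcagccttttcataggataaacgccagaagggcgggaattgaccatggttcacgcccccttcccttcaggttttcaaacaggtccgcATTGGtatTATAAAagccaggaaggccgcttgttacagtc
Hist1h3c held 5 CCAAT and no TATAAA, Hist1h1b 3 CCAAT and Hist1h4d 1 CCAAT. A match describes the window and says nothing of what bound it.

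Lists of genes that act with the histone genes had medians near 0 between the libraries in S-high Tregs. Of all genes tested there, 5.07% were at least 2-fold lower in cKO and 2.82% higher, so a count of 0 in lists of this size says little. Of 30 S phase genes 0 passed 2-fold in either direction between the libraries, and their median log2 ratio was 0.11. They ranged from the DNA polymerase genes Pole (22.2 CPM in cKO and 29.4 CPM in WT, -0.41) and Pola1 (-0.39) to Rpa2, a gene of the single-strand binding complex (0.60), and Slbp. Slbp stood at 358 CPM in cKO and 221 CPM in WT (0.70, 0.61 to 0.78), and Npat at 17.6 CPM in cKO and 19.7 CPM in WT (-0.16, -0.51 to 0.18). Of the 18 measured genes of histone mRNA processing and transcription, 0 passed 2-fold, with a median of 0.02. The lowest was the helicase gene Dhx9 (71.7 CPM in cKO and 103 CPM in WT, -0.52), before the exonuclease gene Xrn1 (-0.41), and beside Slbp the cyclin gene Ccne1 was highest (45.3 and 27.8 CPM, 0.70). Histone chaperones, which carry new histones to DNA, had a median of 0.10 and 0 of 20 past 2-fold, from Ipo4 (-0.37) and Nap1l1 (-0.28) to Chaf1b (0.44) and Asf1b (158 CPM in cKO and 104 CPM in WT, 0.61).

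G2 and M phase genes had a median of 0.07, from Cenpf (-0.28) and Cenpa (-0.19) to Aurka (0.61) and Kif20a (0.79), and genes of polyadenylation and RNA decay also 0.07, from Pcf11 (-0.61) and Tut4 (-0.38) to Cpsf4 (0.35) and Clp1 (0.44), with 0 of 25 and 0 of 20 past 2-fold. Histone genes outside the clusters, which give polyadenylated mRNA, had a median of 0.12, with 0 of 10 past 2-fold. Of these 10 genes, 4 in cKO and 3 in WT were themselves at least 2-fold higher in S-high than in S-zero Tregs, among them H2afx, a gene of the DNA damage variant H2A.X (358 CPM in S-high cKO and 254 CPM in S-high WT Tregs, 0.50). H3f3b, a gene of the replacement histone H3.3, stood at 2912 CPM in cKO and 2483 CPM in WT (0.23), and H2afz, a gene of the variant H2A.Z, at 3806 and 4352 CPM (-0.19). In S-zero Tregs H2afz stood at 1583 CPM in cKO and 2922 CPM in WT (-0.88), and H1fx, a linker histone gene, was the lowest of the list in S-high Tregs at -0.89 on 22 and 103 UMIs. Among 9 measured nuclear, non-coding or rRNA-overlapping genes the median was -0.06, but AY036118 stood at 17.1 CPM in cKO and 208 CPM in WT (-3.61) and Lars2 at 48.0 and 108 CPM (-1.17). Neat1, a nuclear RNA, stood at 60.0 CPM in cKO and 40.8 CPM in WT (0.56), and Rmrp at 2.38 and 1.82 CPM (0.39, -0.70 to 1.41). In S-zero Tregs 2 of 28 S phase genes and 2 of 21 G2 and M phase genes were at least 2-fold lower (6.82% of all genes tested). So were 1 of 18 histone mRNA processing genes, 1 of 10 histone genes outside the clusters and 3 of 9 nuclear, non-coding or rRNA-overlapping genes. Of the chaperone and the polyadenylation and decay lists 0 of 20 each were. The part of RNA quality or capture in the histone difference was not tested.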

How the data were processed

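The deposited matrices hold raw UMI counts per gene and barcode of 1 cKO and 1 WT library. The authors counted reads with Cell Ranger 5.0.1 on mm10, per the submitters' processing notes. The labels state no filter before deposit, no doublet caller was run, and results were recomputed without the 5% of barcodes with most UMIs. Members and lists were chosen with earlier results of these data known.

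UMIs were summed over cells per library, cell class and S group and divided by all UMIs of those cells. Genes with at least 20 UMIs in the compared cells entered a ratio, with no pseudocount, and 2-fold was the threshold. A member could reach this minimum through the higher library or S group alone. Counts of members past 2-fold, in any cell class, therefore describe the members only. Levels have exact Poisson and ratios exact conditional binomial 95% intervals (Python 3.11.15, numpy 2.4.6, pandas 2.3.3, scipy 1.17.1). The calculation was tested on simulated counts. Named members are the 3 highest of each class, the 3 lowest and 3 highest by ratio between the libraries and by S-high over S-zero ratio, and the 3 highest in S-zero Tregs, and of each of 7 lists the 2 lowest and 2 highest. Any other member, such as Hist1h1a, Hist2h2ac, Hist1h2bb or Hist2h3b, was named after its values were seen. Gene spans, stem-loops and shared 90-base stretches come from GENCODE M21 and promoters from RefSeq. Reads of near-identical or overlapping genes may be split or dropped by the authors' counting.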

Additional observations from a re-analysis of the deposited data

How the results depend on the processing

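Values are log2 ratios of cKO over WT, or of S-high over S-zero Tregs within a library, unless they count members. Over all settings the S-high Treg ratio lay between -0.96 and -0.61, with cKO below WT in each. Without the 5% of barcodes with most UMIs it was -0.61, with S-high myeloid cells at -4.71, all Tregs at -1.21, S-high over S-zero at 3.29 in cKO and 3.10 in WT, H1 at -0.91 and H2A at -0.25. With S-high set at 6 UMIs or more, S-high over S-zero was 3.15 in cKO and 3.06 in WT. Under the stricter class rules S-high CD8 T cells gave -0.46, all Tregs -1.16, S-high over S-zero in WT 2.99 and H2A -0.40.

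Without cells of 2 classes the S-high CD8 T ratio turned to 1.73, since 2 WT cells remained. That setting gave -0.73 in S-high Tregs, -0.34 in S-zero CD8 T cells, -1.18 in all Tregs, 3.02 for S-high over S-zero in WT and -1.08 for H1. Scaling to the median of gene ratios, which shifted all genes by 0.02 in S-high and -0.03 in S-zero Tregs, gave -1.09 in all Tregs and 3.12 and 3.08 for S-high over S-zero in cKO and WT. Totals without member, mitochondrial, ribosomal protein and rRNA-overlapping genes gave -0.77 in S-high, -0.88 in S-zero and -1.22 in all Tregs, 3.12 in cKO and 3.01 in WT for S-high over S-zero, -1.07 for H1, -0.43 for H2A, -0.61 for H2B and -0.94 for H4, with 1 member at least 2-fold higher in S-zero Tregs.

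With 5 CPM added to each level, 3 members were at least 2-fold lower and 0 higher in S-zero Tregs. The added CPM shrinks the ratio of every low gene, so this count cannot be set against that of the main setting. For counts of members in S-zero Tregs under other settings no share of all genes is given, so they describe the members only. The mean of per-cell CPM gave -0.72 in S-zero Tregs, -0.16 in S-high CD8 T cells, -1.03 in all Tregs and 3.02 for S-high over S-zero in WT. Thinning to 4100 UMIs gave -0.78 in S-high Tregs, -4.31 in S-high myeloid cells, -1.05 in all Tregs, 3.03 for S-high over S-zero in WT, -1.13 for H1, -0.40 for H2A and -1.09 for H3, with 1 member at least 2-fold higher in S-zero Tregs. Equal weight of the S groups gave -0.70 in all Tregs.

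The last 3 settings were chosen after seeing the data. Taking S groups and levels both from thinned cells gave -0.96 in S-high Tregs, -0.85 in S-zero Tregs, -0.52 in S-high CD8 T cells, -1.05 in all Tregs, 2.99 and 3.11 for S-high over S-zero in cKO and WT, -1.34 for H1, -0.60 for H2A, -0.69 for H2B, -1.33 for H3 and -0.998 for H4. It left 21 members at least 2-fold lower in S-high Tregs and 0 higher in S-zero Tregs. Without Hist1h2ap the ratio was -0.85 in S-high Tregs and -0.81 for H2A. Leaving out the 2 shared barcodes moved none of these values beyond counting error. Except where another cause is given above, the cause was not tested. Of 711 values of single members under other settings 56 moved beyond their interval. In S-high Tregs Hist1h1a (-0.61 to 0.12), Hist1h2bj (-0.34 to 0.02), Hist1h4i (-0.11 to 0.52), Hist1h2ag (-0.08 to 0.42) and Hist3h2a (-0.85 to 0.36) were on either side of 0 depending on the setting. So were Hist1h2ac, Hist1h2ah, Hist1h2bf, Hist1h3d, Hist1h3g, Hist1h4j, Hist2h3b and Hist2h4. Among those above 0 in each setting were Hist1h2ap (0.19 to 0.54), Hist1h3a (0.12 to 0.89) and Hist1h3h (0.16 to 0.82).

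No paired analysis was possible because each group has 1 library. For the same reason animals, sex and library preparation cannot be told apart from genotype. Depth limits the members with few UMIs, and in S-high myeloid cells the number of cells does.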
